A study of Mus musculus with 18 samples.

Results

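The arthritis effect in forepaws of Sema3b knockout mice was measured by setting 5 Sema3b-/- arthritis libraries against 4 Sema3b-/- control libraries, 9 of the 18 libraries of the series. Members were chosen by genotype and treatment label. All mice were C57BL/6, and the other 9 libraries were 4 control and 5 arthritis libraries of wild-type (WT) mice, used here to test whether the effect differed by genotype. The labels give neither the arthritis model, its duration, nor the age of the mice, and they do not say which part of Sema3b was removed. RNA of the whole forepaw was read by CEL-seq, in which each transcript is counted from a tag near its 3' end.

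Both Sema3b-/- groups carry the same deletion, so the comparison holds the genotype fixed. The labels do not state that each library is a separate animal, although each title has its own animal number. The spread in the test was estimated over all 18 libraries, WT included. P-values therefore set the difference between groups only against how much libraries vary within the 4 groups, which may in part be technical. The titles of the 4 controls begin with MI, those of 3 arthritis libraries with Joint, and those of arthritis replicates 1 and 2 with the animal number. No prefix occurs in both groups, so what the prefixes mark and arthritis cannot be told apart. The data column of arthritis replicate 5 carries a suffix used for controls, while its title and treatment label say arthritis. It was kept as arthritis. Sema3b (GRCm38 chr9:107597674-107609229, minus strand) was at 0, 2.23, 2.37 and 7.195 in the controls and 0, 0.948, 2.01, 3.49 and 0 in arthritis, against 44.2 to 67.5 normalized counts in WT control, so all 9 libraries stood below every WT control library. Total reads ran from 1732783 (control replicate 1) to 12816205 (control replicate 2), and 3 reads, which a count of 0 allows, are 12.1 normalized counts in the shallowest library. By Xist and Y-linked genes, control replicates 2 and 3 and arthritis replicate 5 were male and the other 6 libraries female. Muscle (Acta1), skin (Krt10), bone (Col1a1) and cartilage (Col11a2) transcripts were read in all 9 libraries.

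Arthritis is inflammation of the joint, in which leukocytes enter the synovium, the lining fibroblasts multiply, and cartilage and bone are worn away. Chemokines guide the leukocytes, cytokines such as interleukin-1, interleukin-6 and TNF switch on acute phase and matrix-degrading genes, and macrophages carry receptors for antibodies and microbial sugars. Sema3b encodes a secreted class 3 semaphorin, a guidance protein that binds neuropilin and plexin receptors.

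Genes called higher in Sema3b-/- forepaws with arthritis included chemokines, acute phase proteins, myeloid receptors, antigen presentation genes and ribosomal protein genes, and genes called lower included some of bone, cartilage, myelin and the circadian clock. Of 13809 genes tested, 1710 (12.4%) passed an adjusted p under 0.05, 944 (6.84%) higher in arthritis and 766 (5.55%) lower. Adjusted p-values throughout are Benjamini-Hochberg values over these genes from limma. Every log2 fold change is that of the normalized count plus 1, arthritis over control, which understates changes of low genes. Among called genes, 449 rose and 349 fell by at least 2-fold, 42 rose by at least 8-fold and 81 fell by at least 4-fold. The median of all tested genes was -0.01. In bulk tissue, fewer cells of a type and less RNA per cell cannot be told apart.

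The count of called genes depended on single libraries. It was 995 without control replicate 3, 978 without arthritis replicate 2 and 1085 without arthritis replicate 5, whose column suffix goes against its title. It was 800 (462 higher, 338 lower) without control replicate 1 and arthritis replicate 5 together, a choice made after seeing the data. With sex as a term it was 1839, of which 1511 were among the 1710. Of 160 named calls followed through the settings, the sex term ended those of Sema6b, Uqcrc1 and Vwf. Members named only in list counts were not all followed. Some cartilage genes, a Wnt antagonist, and members of the bone and C-type lectin lists among them also lost their call with the sex term. Among the female libraries alone (2 controls, 4 arthritis, also chosen after seeing the data) the count of called genes was 577 (452 of them among the 1710). Against the same 4 controls, the 3 libraries titled Joint gave 610 calls and the 2 titled with the animal number 663. In the authors' deposited table for this comparison, 973 of 13895 genes had an adjusted p under 0.05, and 952 of these were also called here.

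Gene lists by role, chosen with earlier results of these data known, describe the change in the sections that follow. Their counts stand against the background of 6.84% of tested genes called higher and 5.55% called lower, and a share near these says nothing about a list. Regardless of the test, all arthritis libraries were above all controls for 7.13% of tested genes and below them for 6.11%, and 28.5% had an unadjusted p under 0.05. Values per library are normalized counts, in replicate order, 1 to 4 for the controls and 1 to 5 for arthritis. The plots of single genes show the same values on a log2 scale.

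**Figure D1:**
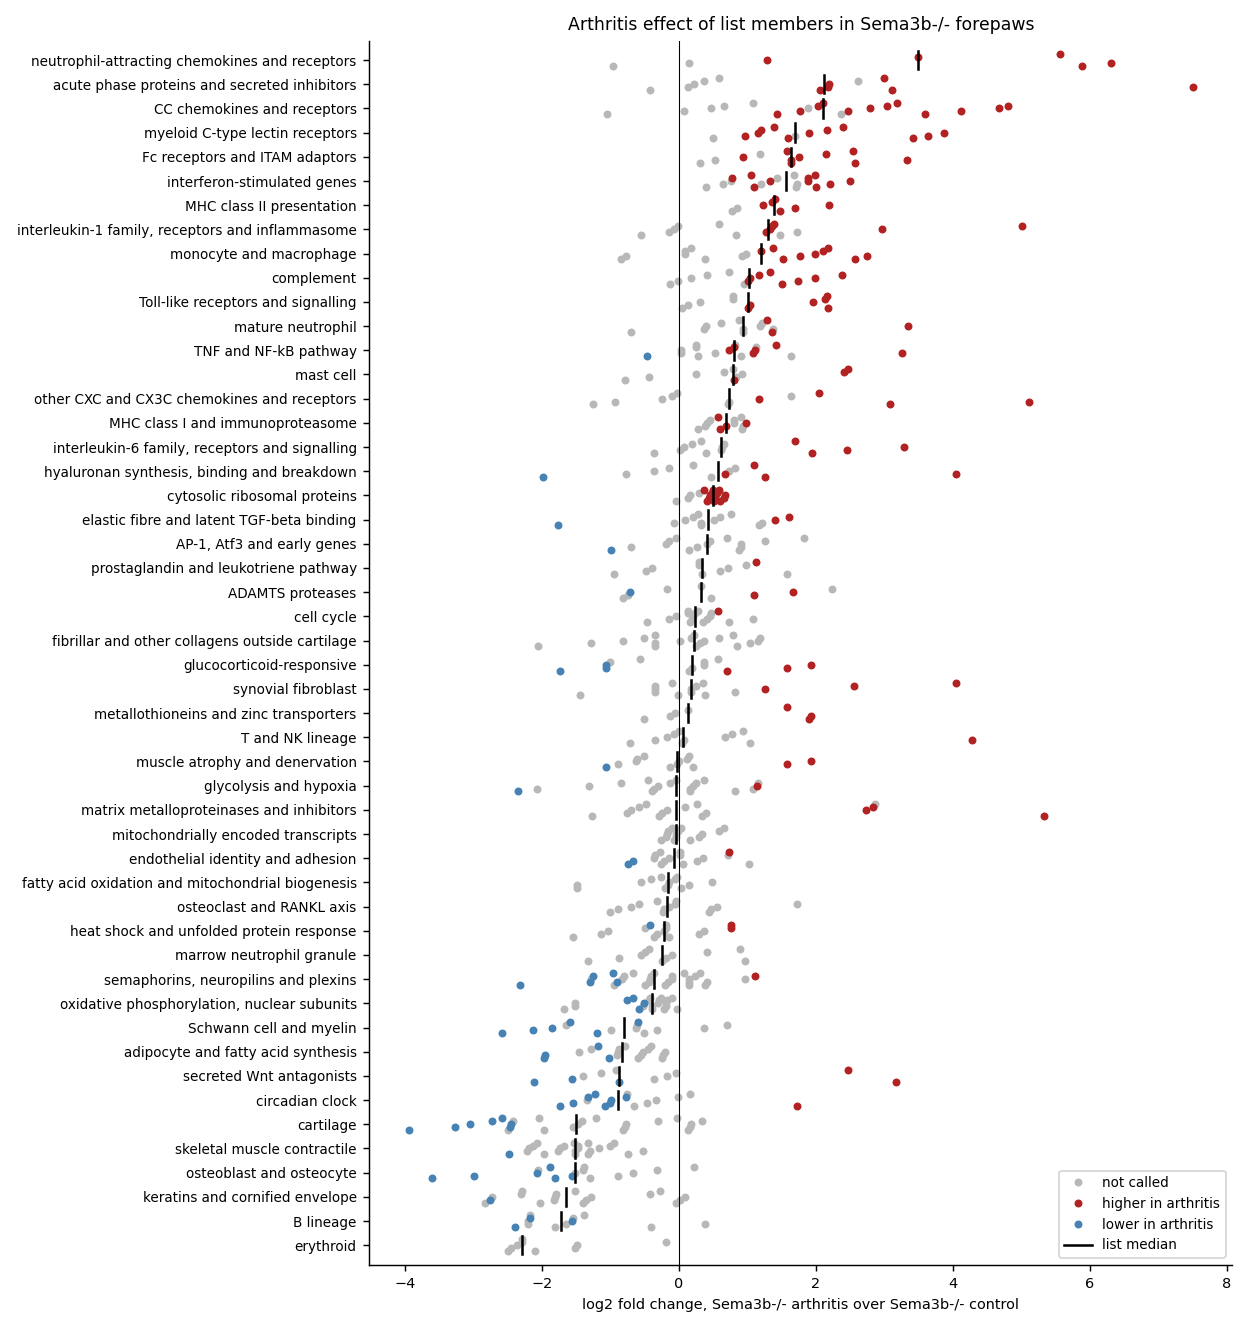
Log2 fold changes (x axis, Sema3b-/- arthritis over Sema3b-/- control) of the tested members of each gene list (rows, sorted by median), with red for genes called higher, blue for genes called lower, gray for genes not called and a black bar for the median. Neutrophil-attracting chemokines stand at the top with a median of 3.49 and erythroid genes at the bottom with -2.29, where no member was called.

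The neutrophil-attracting chemokines Cxcl1, Cxcl2, Cxcl3 and Cxcl5 rose in arthritis from low levels. They are ligands of Cxcr2, the receptor by which neutrophils follow them. Of 7 tested members of the list, 5 rose (Cxcl1, Cxcl2, Cxcl3, Cxcl5 and Cxcr2) and none fell. Summed, the list took 0.0456% to 0.173% of normalized counts in the controls and 0.0668% to 0.170% in arthritis, and these ranges overlapped. The count of members that rose was 3 without control replicate 1, 3 or 4 or arthritis replicate 1, 2 or 5, each time without Cxcl3 and Cxcr2. Cxcl1, one of the chemokines that rose most, starts on the plus strand of chromosome 5. Its promoter is shown because the NF-kB motif occurs there; the 300 bases run from 250 before to 50 after the start (RefSeq, GRCm38.p6, chr5:90890995-90891294, plus strand), with matches of the motif GGG, any 3 bases and TTCC on either strand in capitals.

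Cxcl1: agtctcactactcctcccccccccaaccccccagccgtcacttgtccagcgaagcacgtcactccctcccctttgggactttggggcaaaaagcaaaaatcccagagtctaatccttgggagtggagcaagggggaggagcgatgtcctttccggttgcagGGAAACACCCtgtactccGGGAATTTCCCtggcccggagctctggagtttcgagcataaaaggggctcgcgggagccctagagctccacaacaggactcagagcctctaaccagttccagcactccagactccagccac

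The Cxcl1 promoter held 3 matches in 2 runs of capitals, 2 of which overlap, one on each strand. The motif, searched on both strands, was found in 1825 (5.56%) of 32851 promoters of this length, and in 3 of the 7 list members with a promoter sequence (Cxcl1, Cxcl2 and Cxcl3). A match is a description of the sequence only; binding was not measured.

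Cxcl5 (chr5:90759360-90761624, plus strand) was at 20.2, 12.9, 5.94 and 2.398 in the controls and 593, 1269.8, 654, 392 and 1013 in arthritis (log2 fold change 6.31 ± 1.06 SE, adjusted p = 0.00265). Cxcl1 (chr5:90891241-90893115, plus strand) was at 0, 7.82, 2.37 and 4.797 in the controls and 63.5, 119, 245, 364 and 209 in arthritis (log2 fold change 5.56 ± 1.08 SE, adjusted p = 0.00485). Cxcl2 (chr5:90903871-90905938, plus strand) was at 0, 3.35, 3.56 and 2.398 in the controls and 232, 136, 134, 184 and 176 in arthritis (log2 fold change 5.89 ± 1.28 SE, adjusted p = 0.00904). For each of the 3 the lowest arthritis library lay above the highest control, and the controls were low, so the folds are imprecise. Cxcl3 had 0 reads in all 4 controls and was at 19.4, 27.5, 3.02, 3.49 and 15.98 in arthritis, at least 17.2-fold higher if the controls held 3 reads in all (adjusted p = 0.0288). With Cxcl3 at that bound the list's median was 4.10. Its call ended without control replicate 1, 3 or 4 or arthritis replicate 1, 2 or 5 (adjusted p up to 0.0779). Cxcr2 was at 64.7, 73.2, 43.9 and 32.4 in the controls and 97.2, 228, 103, 101 and 135 in arthritis (log2 fold change 1.28 ± 0.41 SE, adjusted p = 0.0498), and its call ended without control replicate 1, 3 or 4, arthritis replicate 1, 2, 3, 4 or 5, WT control replicate 1, 2, 3 or 4 or WT arthritis replicate 2, 3 or 5 (adjusted p up to 0.134). Cxcr2 is a gene of the neutrophils themselves.

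CC chemokines, which attract monocytes, macrophages, eosinophils and lymphocytes, made up the longest chemokine list. Of 19 members 12 rose and none fell, among the former Ccl2, Ccl3, Ccl4, Ccl6, Ccl7, Ccl8, Ccl9, Ccl12 and Ccl19 and the receptors Ccr1 and Ccr2. The count was 11 or 12 whichever library was left out, and 11 without control replicate 1 and arthritis replicate 5. The list took 0.0173% to 0.03399% of normalized counts in the controls and 0.117% to 0.241% in arthritis. Ccl2, which draws monocytes through Ccr2, was at 97.1, 18.4, 43.9 and 82.7 in the controls and 968, 809, 727, 1365 and 746 in arthritis (log2 fold change 4.12 ± 0.67 SE, adjusted p = 0.00203). Ccl7, another Ccr2 ligand, was at 101, 71.5, 37.99 and 174 in the controls and 2350.4, 2269, 1788, 3946 and 1959 in arthritis (log2 fold change 4.81 ± 0.76 SE, adjusted p = 0.00191). Ccl12, one more ligand of Ccr2, was at 16.2, 36.9, 21.4 and 32.4 in the controls and 175, 316, 174, 275 and 296 in arthritis (log2 fold change 3.19 ± 0.55 SE, adjusted p = 0.00257). All 3 were above every control in every arthritis library, and arthritis replicates 2 and 5 were the highest for Ccl12.

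Ccl8, another monocyte attractant, was at 169.9, 104, 58.2 and 221 in the controls and 2908, 3366, 2116, 3134 and 4851 in arthritis (log2 fold change 4.67 ± 0.63 SE, adjusted p = 0.000903). Ccr2 itself, the receptor on inflammatory monocytes, was at 202, 223, 128 and 110.3 in the controls and 739.9, 765, 565, 705 and 668 in arthritis (log2 fold change 2.10 ± 0.21 SE, adjusted p = 7.85e-05). Its groups did not overlap and its spread was small, and it had the lowest p among the genes that rose. Ccl6 and Ccl9, chemokines that bind Ccr1, rose by 2.46 and 2.03 on the log2 scale (adjusted p = 0.00102 and 0.000903).

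Among other CXC chemokines, 4 of 12 rose and none fell, whichever library was left out. Cxcl13, which draws B cells, was at 0, 10.1, 0 and 15.6 in the controls and 157, 233, 175, 34.9 and 144 in arthritis (log2 fold change 5.11 ± 0.76 SE, adjusted p = 0.00105). Arthritis replicate 4 was lower than the other 4 for Cxcl13, yet above all controls. Cxcl10, an interferon-induced ligand of Cxcr3, was at 8.09, 8.38, 14.2 and 8.39 in the controls and 60.9, 148, 50.3, 43.6 and 261 in arthritis (log2 fold change 3.08 ± 0.72 SE, adjusted p = 0.0123). Cxcl16, a membrane-bound chemokine that is cleaved off, was at 121, 72.6, 84.3 and 119.9 in the controls and 351, 486, 354, 354 and 506 in arthritis (log2 fold change 2.05 ± 0.36 SE, adjusted p = 0.00238). Cxcl14, made by skin and stromal cells, rose by 1.17 (adjusted p = 0.0133). None of the 4 had groups that overlapped.

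**Figure D2:**
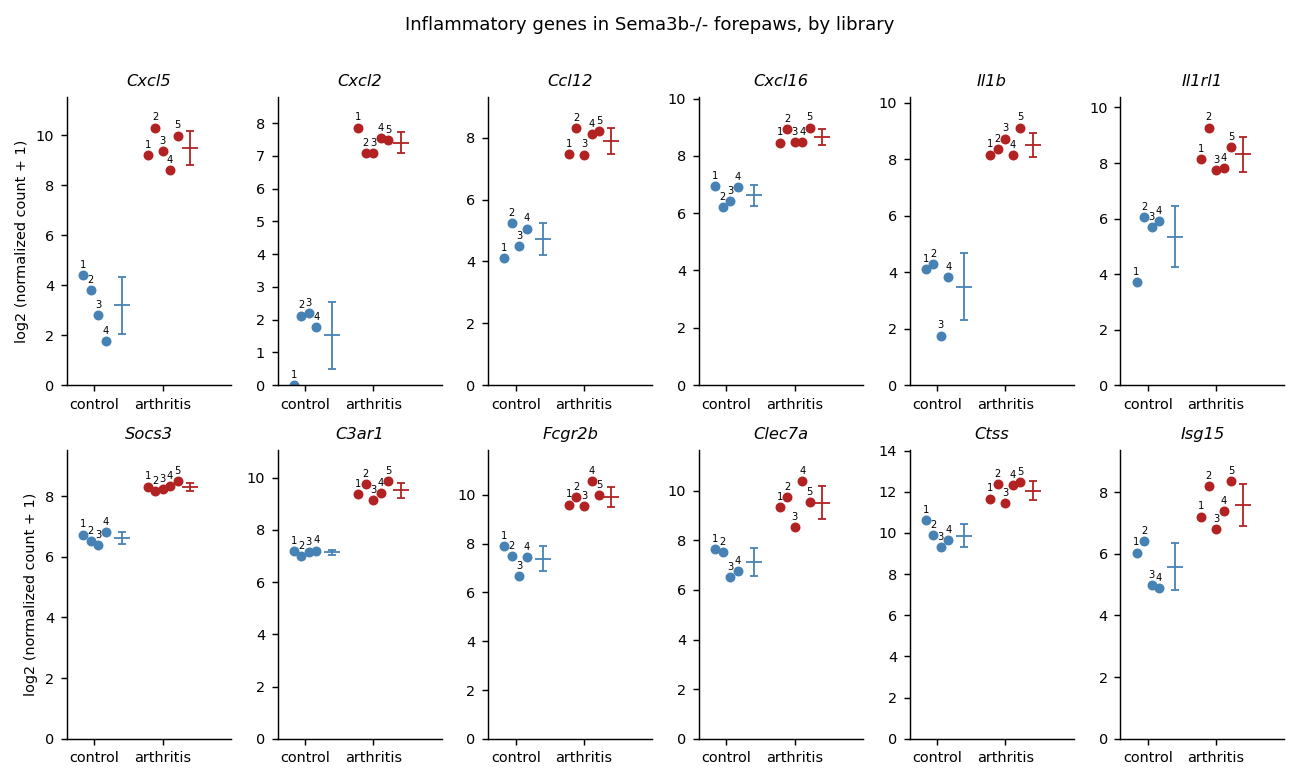
Levels of 12 inflammatory genes by library (y axis, log2 of normalized count plus 1, from 0), with 4 Sema3b-/- controls in blue, 5 Sema3b-/- arthritis libraries in red, replicate numbers beside the points, and the mean with its SD beside each group. In all 12 panels the arthritis libraries lie above the controls without overlap, with log2 fold changes from 1.70 (Socs3) to 6.31 (Cxcl5).

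The interleukin-1 family rose at ligand, receptor and inflammasome level in part. Of 14 tested members 6 rose and none fell (Il1b, Il1rn, Il1r2, Il1rl1, Il33 and Casp4), 3 without control replicate 3. Il1b, the main secreted interleukin-1, was at 16.2, 18.4, 2.37 and 13.2 in the controls and 285, 325, 423, 281 and 556 in arthritis (log2 fold change 5.01 ± 0.88 SE, adjusted p = 0.00305). Il1rl1, the receptor for interleukin-33, was at 12.1, 65.4, 51.1 and 58.8 in the controls and 282, 619.8, 214, 223 and 377 in arthritis (log2 fold change 2.97 ± 0.52 SE, adjusted p = 0.00288). Il33, its ligand, released from damaged stromal cells, was at 105, 70.4, 73.6 and 138 in the controls and 289, 462, 197, 186 and 186 in arthritis (log2 fold change 1.39 ± 0.31 SE, adjusted p = 0.00876). The groups did not overlap for these 3 genes, and control replicate 1 was the lowest for Il1rl1. Casp4, an inflammatory caspase that senses bacterial lipid inside cells, rose by 1.33 (adjusted p = 0.0149), and its call ended without control replicate 3 (adjusted p up to 0.0554). Il1r2, a decoy receptor carried by neutrophils, had 1.36 (adjusted p = 0.0458) and lost its call without control replicate 1, 2 or 3, arthritis replicate 1, 2, 4 or 5, WT control replicate 2 or 4 or WT arthritis replicate 2, 3 or 5 (adjusted p up to 0.135).

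In the interleukin-6 family 4 of 13 members rose and none fell (Il6, Osm and Socs3 among them), 2 without control replicate 3 or arthritis replicate 1, 4 or 5. Socs3, the inhibitor that the pathway's own STAT3 induces, was at 105, 89.95, 81.9 and 110.3 in the controls and 316, 285, 299.5, 321 and 358 in arthritis (log2 fold change 1.70 ± 0.38 SE, adjusted p = 0.00888). Il6 was at 0, 0.559, 0 and 3.598 in the controls and 11.7, 7.58, 21.1, 29.6 and 13.2 in arthritis (log2 fold change 3.29 ± 0.99 SE, adjusted p = 0.0374). Socs3 had a spread smaller than the gap between groups, while Il6 was near the floor of detection in the controls. The call of Il6 ended without control replicate 1, 2 or 3 or arthritis replicate 1, 2, 3, 4 or 5 (adjusted p up to 0.0947). Osm, oncostatin M, whose groups overlapped, lost its call without control replicate 2, 3 or 4 or arthritis replicate 1, 4 or 5 (adjusted p up to 0.0968).

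Of 17 members of the TNF and NF-kB pathway 6 rose (Tnfrsf1b, Nfkb2, Tnfaip3, Birc3, Traf1 and Icam1) and 1 fell. The member that fell was Rela, chosen here after its values were seen, at 275, 298, 309.9 and 344 in the controls and 198, 257, 183, 240.5 and 238 in arthritis (log2 fold change -0.46 ± 0.13 SE, adjusted p = 0.0269); the count of lower members was 0 without control replicate 3 or 4 or arthritis replicate 1 or 3. Traf1, a signalling adaptor of TNF receptors, was at 0, 16.2, 3.56 and 8.39 in the controls and 45.4, 93.8, 45.2, 30.5 and 46.5 in arthritis (log2 fold change 3.25 ± 0.63 SE, adjusted p = 0.00418). Tnfrsf1b, the receptor TNFR2 found on leukocytes, was at 186, 253, 183 and 114 in the controls and 419, 572, 346, 508 and 558 in arthritis (log2 fold change 1.41 ± 0.29 SE, adjusted p = 0.00586). Birc3 and Nfkb2, an inhibitor of cell death and an NF-kB subunit, rose by 1.07 and 0.81 (adjusted p = 0.0142 and 0.0168). The list's median was 0.81, against -0.01 over all genes. In this list 5 of the 14 members with a promoter sequence held the NF-kB motif.

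Acute phase proteins, secreted by liver and by inflamed stroma, held the gene with the highest fold among those the naming rule takes. Of 12 tested members 6 rose and none fell (Saa2, Saa3, Hp, Serpina3n, Slpi and Ptx3). Saa3, a serum amyloid made outside the liver (chr7:46711998-46715700, minus strand), was at 8.09, 17.9, 5.94 and 11.99 in the controls and 2568, 3699.6, 1624, 784 and 2858 in arthritis (log2 fold change 7.51 ± 1.27 SE, adjusted p = 0.00280). Arthritis replicate 4 was the lowest of the 5 and still stood far above every control. Ptx3, a long pentraxin that binds microbes, was at 24.3, 46.9, 27.3 and 28.8 in the controls and 260.4, 515, 269, 179 and 235 in arthritis (log2 fold change 3.11 ± 0.43 SE, adjusted p = 0.000776). Serpina3n, a serine protease inhibitor, was at 182, 180.5, 161 and 193 in the controls and 597, 665, 647, 875 and 1036 in arthritis (log2 fold change 2.06 ± 0.31 SE, adjusted p = 0.00106). Slpi, an inhibitor of neutrophil elastase, rose by 2.20 (adjusted p = 0.0177), and its call ended without control replicate 3 (adjusted p up to 0.0588).

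Complement genes rose in 8 of 14 members and fell in none, 8 or 9 whichever library was left out: C1qa, C1qb, C1qc, C1ra, C3, Cfb, Cfp and C3ar1. C3, the protein on which all complement pathways converge, was at 1347, 770.4, 677 and 943 in the controls and 2869, 2586, 2738, 4901 and 2523 in arthritis (log2 fold change 1.74 ± 0.26 SE, adjusted p = 0.000903). C3ar1, receptor of its fragment C3a, was at 146, 126, 141 and 146 in the controls and 663, 866, 564, 674 and 931 in arthritis (log2 fold change 2.37 ± 0.36 SE, adjusted p = 0.00109). C1qa, a chain of the C1q complex that tissue macrophages make, was at 781, 588, 553 and 640.4 in the controls and 1657, 1823, 1095, 1679 and 1916 in arthritis (log2 fold change 1.34 ± 0.21 SE, adjusted p = 0.00119). No control reached an arthritis library for these genes; arthritis replicate 4 was the highest for C3 and arthritis replicate 3 the lowest for C1qa. Cfp, properdin, rose by 1.503 (adjusted p = 0.00537).

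Genes of monocytes and macrophages rose in 9 of 17 members and fell in none, 9 or 10 whichever library was left out: Adgre1, Lyz2, Ccr2, Itgam, Fcgr1, Cd14, Mrc1, Trem2 and Msr1. Summed, the list took 0.0526% to 0.09297% of normalized counts in the controls and 0.105% to 0.159% in arthritis, which did not overlap. The part of this in the other myeloid results was not tested. Msr1, a scavenger receptor of macrophages, was at 68.8, 45.3, 30.9 and 39.6 in the controls and 367, 472, 202, 213 and 345 in arthritis (log2 fold change 2.75 ± 0.37 SE, adjusted p = 0.000559). Mrc1, the mannose receptor of resident macrophages, was at 761, 508, 408 and 502 in the controls and 1598, 1095, 1085, 1364 and 1061 in arthritis (log2 fold change 1.20 ± 0.18 SE, adjusted p = 0.000903). Ms4a6c, a membrane protein of monocytes, was at 166, 156, 71.2 and 87.5 in the controls and 603, 855, 447, 478 and 745 in arthritis (log2 fold change 2.42 ± 0.30 SE, adjusted p = 0.000366). All 3 separated the groups fully, and control replicate 3 was the lowest for each of them. Itgam, the CD11b integrin chain of monocytes and neutrophils, rose by 1.37 (adjusted p = 0.00207), with groups that overlapped.

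Genes of mature neutrophils gave a less uniform picture. Of 13 tested members 3 rose (Cxcr2, Il1r2 and Stfa2l1) and none fell, and the count was 1 without control replicate 1 or 3, arthritis replicate 1, 2, 4 or 5, WT control replicate 2 or 4 or WT arthritis replicate 2, 3 or 5. The call of Stfa2l1 held whichever library was left out. Stfa2l1, a cysteine protease inhibitor of the stefin A family with close copies in the genome, was at 0, 6.15, 1.19 and 0 in the controls and 19.4, 25.6, 13.1, 14.8 and 26.4 in arthritis (log2 fold change 3.34 ± 0.63 SE, adjusted p = 0.00356). Fpr2, a formyl peptide receptor, was at 182, 315, 83.1 and 79.1 in the controls and 482, 416, 162, 345 and 329 in arthritis (log2 fold change 1.22 ± 0.47 SE, adjusted p = 0.1002), with groups that overlapped. Its members together took 0.0871% to 0.443% of normalized counts in the controls and 0.166% to 0.669% in arthritis, and these ranges overlapped. Ly6g, a neutrophil marker, was not analysed here.

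Granule genes that neutrophils transcribe while still in the marrow gave no call in 11 members (limma called none, 0 had an unadjusted p under 0.05, edgeR called 0 and DESeq2 0). Ngp was at 4115, 9663, 3297 and 1899.6 in the controls and 6518, 1971, 598, 4829.7 and 269.5 in arthritis (log2 fold change -1.32 ± 0.95 SE, adjusted p = 0.381), and Ltf, lactoferrin, at 793, 1819.7, 643 and 359 in the controls and 1455, 565, 179, 1263 and 65.3 in arthritis (log2 fold change -0.87 ± 0.85 SE, adjusted p = 0.535). The spread between libraries of one group exceeded the difference between the groups. Summed, these genes took 0.0508% to 0.279% of normalized counts in the controls and 0.0184% to 0.2799% in arthritis.

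Receptors for antibody and their adaptors rose in 9 of 12 members and fell in none, and those that rose included Fcgr1, Fcgr2b, Fcgr3, Fcgr4, Fcer1g, Tyrobp, Trem1 and Pirb. All 12 had a log2 fold change above 0. Fcer1g, the signalling chain shared by activating Fc receptors, was at 1372, 1699.6, 906 and 1233 in the controls and 3882, 4794, 3361, 4993 and 4549.6 in arthritis (log2 fold change 1.75 ± 0.22 SE, adjusted p = 0.000418). Fcgr2b, the inhibitory receptor, was at 239, 179, 101 and 173 in the controls and 779, 958, 739.8, 1516 and 1027 in arthritis (log2 fold change 2.55 ± 0.39 SE, adjusted p = 0.00124). Fcgr1, the high-affinity receptor for IgG, was at 52.6, 78.2, 27.3 and 25.2 in the controls and 262, 367, 139, 166 and 426 in arthritis (log2 fold change 2.57 ± 0.46 SE, adjusted p = 0.003001). Arthritis replicate 3 was the lowest of its group for Fcer1g, yet no group overlapped for the 3 genes. Fcgr3, an activating receptor of lower affinity, rose by 1.64 (adjusted p = 0.00211).

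C-type lectin receptors of myeloid cells, which bind sugars of microbes and of dead cells, rose in 11 of 13 members and fell in none. The 11 were Clec4a1, Clec4a2, Clec4a3, Clec4d, Clec4e, Clec4n, Clec5a, Clec7a, Clec10a, Clec12a and Mrc1, and all 13 had a log2 fold change above 0. The count was 8 to 11 when 1 library was left out and 10 with sex as a term. Clec4e, Mincle, was at 20.2, 31.3, 2.37 and 17.99 in the controls and 209, 316, 102, 212 and 296 in arthritis (log2 fold change 3.87 ± 0.83 SE, adjusted p = 0.00834). Clec4d, its partner, was at 76.9, 54.2, 51.1 and 26.4 in the controls and 647, 951, 407, 337 and 1041 in arthritis (log2 fold change 3.63 ± 0.65 SE, adjusted p = 0.00353). Clec7a, Dectin-1, which binds beta-glucan, was at 198, 184, 90.2 and 108 in the controls and 644, 859.5, 373, 1335 and 748 in arthritis (log2 fold change 2.40 ± 0.39 SE, adjusted p = 0.00176). Arthritis replicate 4 was the highest for Clec7a and replicate 3 the lowest, and no control reached it. Clec4n, Dectin-2, rose by 3.42, Clec4a3 by 2.17 and Clec4a2 by 1.59 (adjusted p = 0.00885, 0.000903 and 0.00119).

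Of 11 tested Toll-like receptor and signalling genes 6 rose and none fell (Tlr1, Tlr2, Tlr3, Tlr13, Cd14 and Ly96). Cd14, the co-receptor that hands lipopolysaccharide to Tlr4, was at 397, 169, 264 and 192 in the controls and 1297, 1392, 857, 992 and 1045 in arthritis (log2 fold change 2.18 ± 0.43 SE, adjusted p = 0.005103). Tlr2, which senses bacterial lipoproteins, was at 40.5, 51.96, 21.4 and 34.8 in the controls and 148, 177, 116, 114 and 158 in arthritis (log2 fold change 1.96 ± 0.40 SE, adjusted p = 0.00522). Tlr13, a sensor of bacterial ribosomal RNA, was at 64.7, 65.4, 26.1 and 22.8 in the controls and 174, 279, 135, 116 and 239 in arthritis (log2 fold change 2.13 ± 0.39 SE, adjusted p = 0.00296). Each of the 3 was higher in all 5 arthritis libraries than in any control. Tlr3, a sensor of double-stranded RNA, rose by 1.04 (adjusted p = 0.00944).

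MHC class II genes, by which macrophages, dendritic cells and B cells show peptides to T cells, rose in 6 of 8 members and fell in none. The count of 6 held whichever library was left out: H2-Aa, H2-Ab1, H2-Eb1, H2-DMb1, Ciita and Ctss. H2-Aa, an alpha chain of class II, was at 5665, 4537, 2316 and 3417 in the controls and 12448, 11933, 8814, 19112 and 11006 in arthritis (log2 fold change 1.70 ± 0.32 SE, adjusted p = 0.00392). Ciita, the master activator of class II genes, was at 36.4, 36.3, 17.8 and 11.99 in the controls and 57.01, 73.9, 54.3, 67.96 and 64.6 in arthritis (log2 fold change 1.41 ± 0.28 SE, adjusted p = 0.00503). Ctss, the protease that trims the invariant chain, was at 1582, 941, 634 and 806 in the controls and 3256, 5272, 2775, 5162 and 5642 in arthritis (log2 fold change 2.19 ± 0.39 SE, adjusted p = 0.00317). Arthritis replicate 4 was the highest for H2-Aa and replicate 2 for Ciita, and none of the 3 overlapped between groups. H2-DMb1, part of the peptide loader, rose by 1.23 (adjusted p = 0.00578). Among the 6 female libraries alone, 1 member of this list passed, with 2 controls.

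MHC class I and immunoproteasome genes moved less. Of 13 members 4 rose (B2m, H2-K1, Psmb10 and Psme2), none fell, and the median was 0.69. The count was 0 without control replicate 3, 1 without arthritis replicate 2, 2 without control replicate 4 or arthritis replicate 1 or 5, 7 without control replicate 2 or arthritis replicate 3 and 8 without WT arthritis replicate 1. With sex as a term 9 rose. B2m, the light chain of every class I molecule, was at 8359.5, 7958, 4533 and 5255 in the controls and 10923, 12371, 9441, 13200.5 and 17707 in arthritis (log2 fold change 0.98 ± 0.23 SE, adjusted p = 0.0131), without overlap; its call ended without control replicate 3 (adjusted p up to 0.0506). Psme2, a subunit of the proteasome activator, rose by 0.57 (adjusted p = 0.0202), and its call ended without control replicate 3 or 4 or arthritis replicate 2 (adjusted p up to 0.0648).

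Interferon-stimulated genes had a log2 fold change above 0 in all 18 members, and 10 rose (Isg15, Ifit3, Ifitm3, Oas1a, Oasl2, Bst2, Gbp2, Gbp3 and Rtp4 among them). The count was 5 without control replicate 3 and 6 without arthritis replicate 2 or 5. Promoters of the first 2 are shown because both hold the interferon-stimulated response element, searched as GAAA, any 2 bases and GAAA on both strands with matches in capitals (RefSeq, GRCm38.p6, 250 bases before to 50 after the start, Isg15 at chr4:156200769-156201068, minus strand, Ifit3 at chr19:34583279-34583578, plus strand).

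Isg15: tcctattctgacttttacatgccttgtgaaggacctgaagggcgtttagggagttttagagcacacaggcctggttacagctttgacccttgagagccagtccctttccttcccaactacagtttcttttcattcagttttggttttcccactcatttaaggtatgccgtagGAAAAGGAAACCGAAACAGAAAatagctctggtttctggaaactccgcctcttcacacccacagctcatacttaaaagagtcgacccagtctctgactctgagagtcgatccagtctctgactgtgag
Ifit3: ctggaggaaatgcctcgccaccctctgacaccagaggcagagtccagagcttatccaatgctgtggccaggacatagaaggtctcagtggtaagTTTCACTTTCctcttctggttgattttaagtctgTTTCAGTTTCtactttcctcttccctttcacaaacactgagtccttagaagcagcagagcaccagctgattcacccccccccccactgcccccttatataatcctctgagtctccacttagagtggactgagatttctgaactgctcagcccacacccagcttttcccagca

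Isg15 held 3 overlapping matches in 1 run of capitals and Ifit3 held 2 separate ones. The motif was found in 10 of the 14 list members with a promoter sequence (71.4%) and in 1131 (3.44%) of 32851 promoters. It was found in Rsad2 and Ifit1 too, which did not pass the test, as well as in Bst2, Gbp2, Gbp3, Ifitm3, Oas1a and Stat2.

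Isg15, a ubiquitin-like modifier, was at 64.7, 84.4, 30.9 and 28.8 in the controls and 146, 292, 109.6, 165 and 326 in arthritis (log2 fold change 1.997 ± 0.45 SE, adjusted p = 0.00912). Bst2, tetherin, which holds budding virus to the cell, was at 48.6, 86.04, 64.1 and 58.8 in the controls and 260.4, 356, 175, 296 and 454 in arthritis (log2 fold change 2.20 ± 0.36 SE, adjusted p = 0.00163). Oasl2, a relative of the oligoadenylate synthetases, was at 89.02, 170.4, 85.5 and 106 in the controls and 325, 571, 336, 288 and 596 in arthritis (log2 fold change 1.89 ± 0.37 SE, adjusted p = 0.00448). Arthritis replicates 2 and 5 were the highest for Isg15 and arthritis replicate 3 the lowest, with controls 1 and 2 above controls 3 and 4. Ifitm3, which blocks viral entry, rose by 0.77 (adjusted p = 0.0129). Summed, the list took 0.0258% to 0.0463% of normalized counts in the controls and 0.0603% to 0.133% in arthritis.

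**Figure D3:**
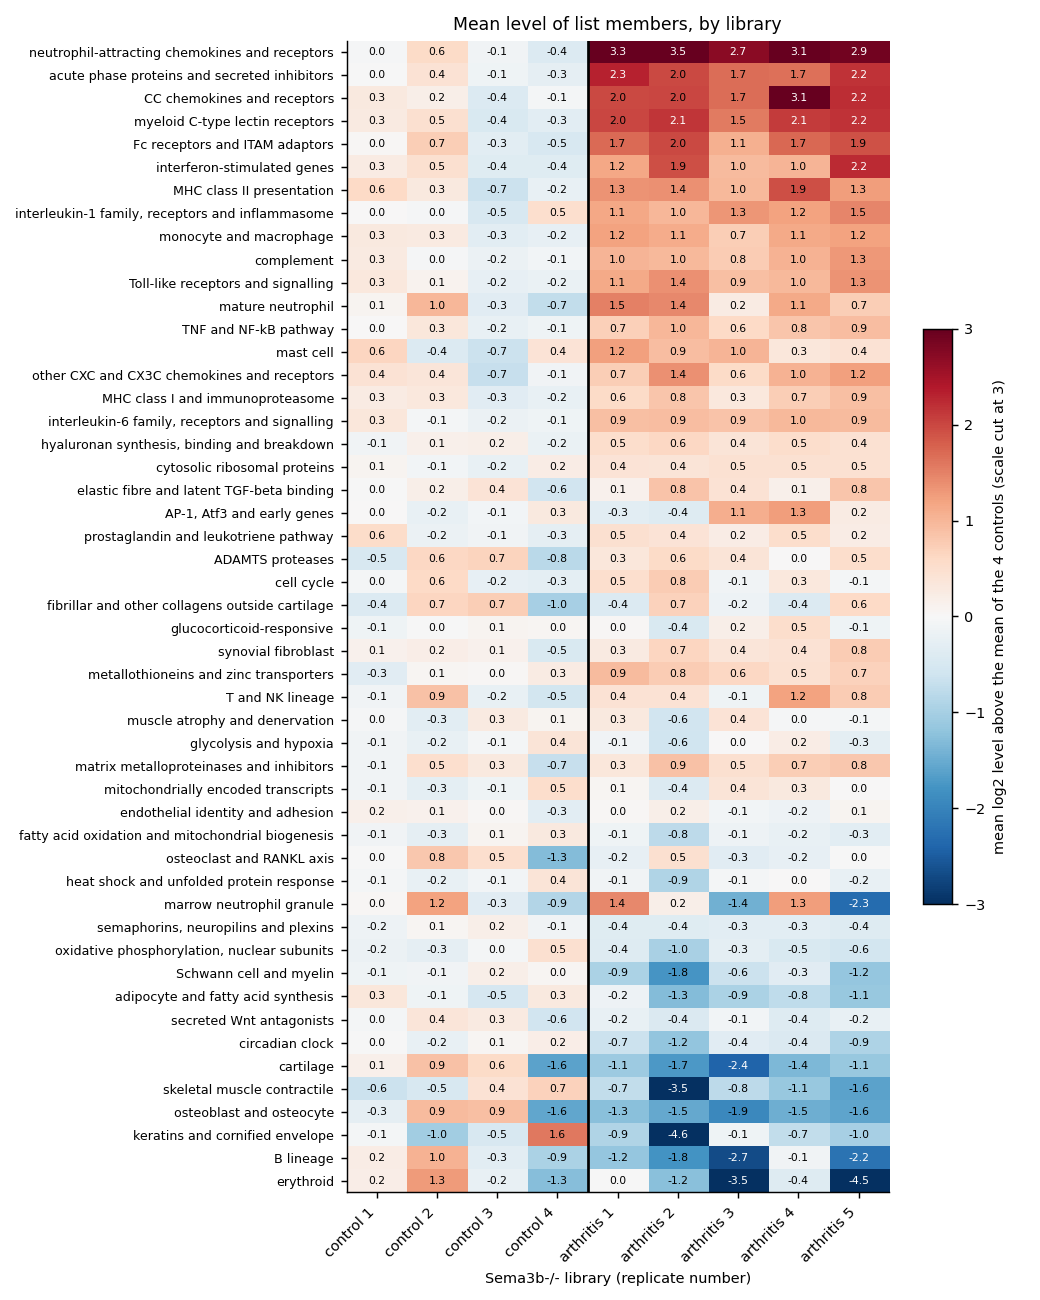
Mean log2 level of each list's tested members in each of the 9 Sema3b-/- libraries (columns), relative to the mean of the 4 controls (color scale in log2 units, cut at 3 in either direction). The rows of neutrophil-attracting chemokines, CC chemokines and C-type lectin receptors are above every control in all 5 arthritis libraries, while bone, cartilage, keratin, B lineage and erythroid rows also differ between the controls, with replicates 2 and 4 apart.

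Matrix-degrading enzymes and their inhibitors rose in few members. Of 16 matrix metalloproteinases and inhibitors 3 rose (Mmp3, Mmp19 and Timp1) and none fell. Mmp3, stromelysin 1 of synovial fibroblasts (chr9:7445822-7455975, plus strand), was at 40.5, 64.8, 66.5 and 46.8 in the controls and 1704, 3321, 2086, 1106 and 3795 in arthritis (log2 fold change 5.33 ± 0.72 SE, adjusted p = 0.000903). Timp1, an inhibitor of metalloproteinases, was at 668, 1211, 1089 and 531 in the controls and 5232, 11315, 4689.9, 3757 and 6864 in arthritis (log2 fold change 2.83 ± 0.61 SE, adjusted p = 0.00892). Both were above all controls in all 5 arthritis libraries. Mmp19 rose by 2.73 (adjusted p = 0.0217), and its call ended without control replicate 1 or 3 or arthritis replicate 2 or 5 (adjusted p up to 0.0769). Mmp16, a membrane-bound member, was at 32.4, 60.3, 84.3 and 14.4 in the controls and 7.77, 22.7, 18.1, 13.9 and 21.5 in arthritis (log2 fold change -1.27 ± 0.44 SE, adjusted p = 0.0638), with overlap. In the ADAMTS family 2 of 9 members rose (Adamts1 and Adamts15) and 1 fell (Adamtsl4). The calls of Adamts15 and Adamtsl4 ended without control replicate 1 or 4 or arthritis replicate 1, 3 or 5 (adjusted p up to 0.0952) and without control replicate 2, 3 or 4 or arthritis replicate 1, 2 or 4 (adjusted p up to 0.0882) respectively. Adamts1, which cleaves versican and aggrecan, rose by 1.10 (adjusted p = 0.0183), and its call ended without control replicate 4 (adjusted p up to 0.0518).

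In the prostaglandin and leukotriene pathway 1 of 11 members rose (9.09%), a share near the background. It was Alox5ap, which hands arachidonic acid to 5-lipoxygenase, at 838, 779.9, 464 and 423 in the controls and 1346, 1518, 836, 1701 and 1313 in arthritis (log2 fold change 1.13 ± 0.23 SE, adjusted p = 0.00560), with overlap. Ptgs2, cyclooxygenase 2, was at 8.09, 3.91, 5.94 and 1.199 in the controls and 10.4, 11.4, 24.1, 14.8 and 13.9 in arthritis (log2 fold change 1.58 ± 0.65 SE, adjusted p = 0.117); all arthritis libraries were above all controls, but the difference did not pass the test.

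Synovial fibroblast genes rose in 3 of 15 members and fell in none (Pdpn, Has1 and Tnfaip6). Pdpn, podoplanin of lining fibroblasts and lymphatic vessels, was at 121, 187, 216 and 173 in the controls and 1064, 1558, 814, 696 and 1124 in arthritis (log2 fold change 2.56 ± 0.42 SE, adjusted p = 0.00192). Tnfaip6, which TNF induces and which binds hyaluronan, was at 44.5, 58.1, 41.6 and 21.6 in the controls and 647, 785, 498, 869.6 and 575 in arthritis (log2 fold change 4.05 ± 0.77 SE, adjusted p = 0.00468). Neither gene overlapped between groups. Has1, a hyaluronan synthase, rose by 1.26 (adjusted p = 0.04697), a call that ended without control replicate 1, 2, 3 or 4, arthritis replicate 1, 2, 3, 4 or 5, WT control replicate 1, 2, 3 or 4 or WT arthritis replicate 1, 4 or 5 (adjusted p up to 0.121). Clic5, a chloride channel protein, was at 1428, 625, 662 and 657 in the controls and 223, 160.2, 349, 413 and 385 in arthritis (log2 fold change -1.45 ± 0.55 SE, adjusted p = 0.0947); control replicate 1 was the highest by far. In the hyaluronan list 4 of 12 rose (Has1, Cd44, Tnfaip6 and Vcan) and 1 fell (Stab2, a hyaluronan scavenger of sinusoids, -1.98 (adjusted p = 0.0358)). The count of higher members was 1 without control replicate 1 or 4 or arthritis replicate 2 or 5 and 2 without control replicate 2 or arthritis replicate 4, and that of lower ones 0 without control replicate 1, 2, 3 or 4 or arthritis replicate 2 or 5.

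Secreted Wnt antagonists split in both directions. Sfrp1 and Sfrp2, frizzled-related proteins that bind Wnt ligands, rose, and Sfrp4, Wif1 and Notum fell, among 11 members. Sfrp2 (chr3:83766321-83774316, plus strand) was at 166, 159, 75.98 and 98.3 in the controls and 457, 2287, 1167, 468 and 2505 in arthritis (log2 fold change 3.17 ± 0.76 SE, adjusted p = 0.0156). Sfrp1 was at 405, 222, 278 and 235 in the controls and 998, 3333, 1717, 567 and 2613 in arthritis (log2 fold change 2.47 ± 0.59 SE, adjusted p = 0.01496). Wif1, Wnt inhibitory factor 1, was at 352, 568, 465 and 252 in the controls and 139.9, 91.9, 139.7, 159 and 139 in arthritis (log2 fold change -1.56 ± 0.28 SE, adjusted p = 0.00280). For all 3 the groups were fully apart, Sfrp2 being highest in arthritis replicates 2 and 5 and Wif1 lowest in arthritis replicate 2. Sfrp4 fell by 0.88 (adjusted p = 0.01205).

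Of the elastic fibre and latent TGF-beta binding genes, 2 of 14 rose (Fbln2 and Ltbp2) and 1 fell (Ltbp4). Ltbp4, which tethers latent TGF-beta to elastic fibres (chr7:27305136-27337692, minus strand), was at 1198, 903, 987 and 935 in the controls and 332, 162, 347, 427 and 270.2 in arthritis (log2 fold change -1.77 ± 0.22 SE, adjusted p = 0.000366). Fbln2, a fibulin of vessel walls and stroma, was at 376, 354, 527 and 404 in the controls and 847, 1987, 844, 750.2 and 1449.6 in arthritis (log2 fold change 1.41 ± 0.32 SE, adjusted p = 0.0107). The controls varied little for Ltbp4, and all 5 arthritis libraries were below them. Ltbp2 rose by 1.60 (adjusted p = 0.0183), and its call ended without control replicate 4 (adjusted p up to 0.0533). Fbn1, fibrillin 1, was at 732, 863, 1237 and 722 in the controls and 1125, 2003, 1210.2, 1496 and 1713 in arthritis (log2 fold change 0.77 ± 0.26 SE, adjusted p = 0.0638), with overlap.

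Genes of osteoblasts and osteocytes fell in 6 of 15 members and rose in none (Sp7, Alpl, Bglap, Bglap2 and Phex among those that fell), 11 without control replicate 4. Bglap, osteocalcin, the main protein of bone apart from collagen (chr3:88383501-88384464, minus strand), was at 142, 472, 317 and 40.8 in the controls and 18.1, 8.53, 5.03, 33.1 and 14.6 in arthritis (log2 fold change -3.60 ± 0.66 SE, adjusted p = 0.00308). Alpl, the phosphatase that lets bone mineralize, was at 498, 1134, 1295 and 285 in the controls and 223, 276, 145, 163 and 178 in arthritis (log2 fold change -1.81 ± 0.39 SE, adjusted p = 0.00804). Controls 2 and 3 were the highest and control replicate 4 the lowest for Bglap and Alpl, and that control lay just above the highest arthritis library. Bglap2, a near-identical neighbour of Bglap whose 3' reads may be shared with it, had -2.99 (adjusted p = 0.0107) and overlapped. Col1a1, the main chain of bone collagen but also of skin and tendon, was at 56748, 272799, 319299 and 25622 in the controls and 15891, 43663, 22099, 15652 and 45086 in arthritis (log2 fold change -2.06 ± 0.67 SE, adjusted p = 0.0586), with overlap. Together these genes took 0.351% to 4.61% of normalized counts in the controls and 0.329% to 0.904% in arthritis, and these ranges overlapped. With sex as a term 5 members fell, with the 3 libraries titled Joint 5, with the 2 titled with the animal number 1, and in female libraries alone 0.

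The osteoclast and RANKL list gave no call in 14 tested members (limma called none, 2 had an unadjusted p under 0.05, edgeR called 0 and DESeq2 1), but 3 passed as lower without control replicate 4. Tnfsf11, RANKL, the cytokine that drives osteoclast formation, was at 8.09, 17.3, 9.498 and 1.199 in the controls and 15.5, 39.8, 26.1, 18.3 and 33.3 in arthritis (log2 fold change 1.73 ± 0.60 SE, adjusted p = 0.0643). Itgb3, an integrin chain by which osteoclasts grip bone, was at 388, 516, 487 and 89.9 in the controls and 136, 290, 136, 173 and 129 in arthritis (log2 fold change -0.90 ± 0.40 SE, adjusted p = 0.153), with control replicate 4 far below the other controls.

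Cartilage genes fell in 7 of 24 tested members and rose in none (Col2a1, Col9a1, Col11a2, Chad, Cilp2, Clec3a and Col10a1), 4 without control replicate 2 or 3 and 12 without control replicate 4. Col11a2, a chain of the thin fibrils of cartilage (chr17:34039437-34066685, plus strand), was at 80.9, 308, 275 and 29.98 in the controls and 7.77, 22.7, 8.04, 9.58 and 14.6 in arthritis (log2 fold change -3.27 ± 0.54 SE, adjusted p = 0.00168). Cilp2, a protein of the matrix between chondrocytes, was at 380.3, 519.6, 579 and 211 in the controls and 81.6, 40.7, 63.3, 63.6 and 50.7 in arthritis (log2 fold change -2.73 ± 0.34 SE, adjusted p = 0.000366). Chad, chondroadherin, by which chondrocytes hold to collagen, was at 4083, 4133, 4894 and 2255 in the controls and 993, 349, 399, 1360.1 and 465 in arthritis (log2 fold change -2.59 ± 0.54 SE, adjusted p = 0.00797). Their groups were apart, and controls 2 and 3 were again the highest for Col11a2 with control replicate 4 the lowest. With sex as a term 5 members fell, with the libraries titled Joint 3, with those titled with the animal number 2 and in the female libraries 2. Clec3a, a cartilage lectin, fell by 2.47 (adjusted p = 0.0134). Summed, cartilage genes took 0.365% to 0.855% of normalized counts in the controls and 0.435% to 0.633% in arthritis, and these ranges overlapped. Collagens outside cartilage gave no call in 19 members, with a median of 0.22 (limma called none, 5 had an unadjusted p under 0.05, edgeR called 1 and DESeq2 2).

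**Figure D4:**
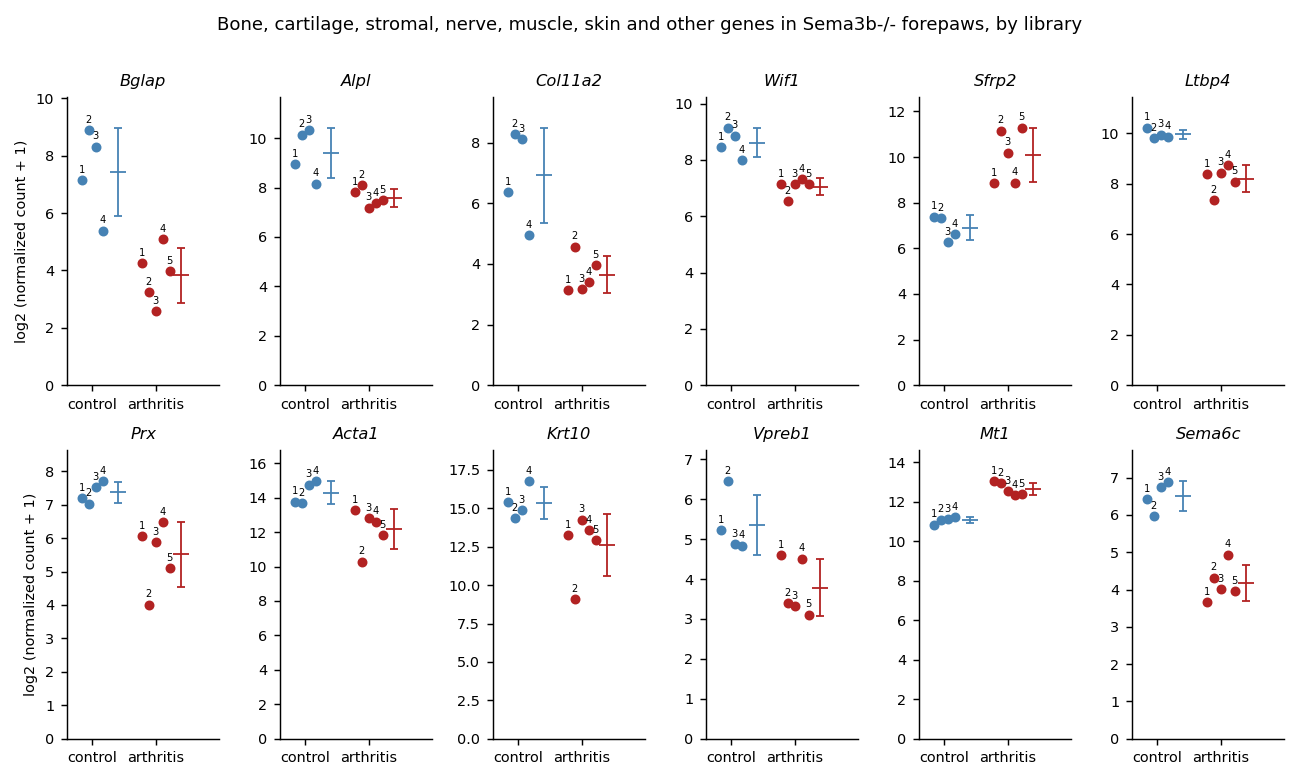
Levels of 12 tissue genes by library (y axis, log2 of normalized count plus 1, from 0), with 4 Sema3b-/- controls in blue, 5 Sema3b-/- arthritis libraries in red, replicate numbers beside the points, and the mean with its SD beside each group. Sfrp2 and Mt1 are above and the other 10 genes below the controls in the mean, and Acta1 and Krt10 did not pass the test.

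Skeletal muscle contractile genes had a log2 fold change below 0 in all 22 members (7 without overlap between groups), with a median of -1.52, but only Csrp3 passed the test. The count was 0 without control replicate 1, 3 or 4, arthritis replicate 2, 4 or 5, WT control replicate 1, 2, 3 or 4 or WT arthritis replicate 5, 2 without WT arthritis replicate 2 and 6 without WT arthritis replicate 3. Acta1, skeletal actin, was at 13996, 13293, 27528 and 31782 in the controls and 10000.4, 1249.9, 7128, 6239.5 and 3625 in arthritis (log2 fold change -2.13 ± 0.69 SE, adjusted p = 0.0552). Mylpf, the regulatory light chain of fast fibres, was at 13279.8, 17891, 24092 and 26707 in the controls and 7774, 842, 9251, 5416 and 4277 in arthritis (log2 fold change -2.21 ± 0.74 SE, adjusted p = 0.0635). The groups of both were apart, and arthritis replicate 2 was the lowest by far. Csrp3, a protein of the muscle Z-disc, was at 1999, 911, 2143 and 2812 in the controls and 272, 79.6, 811, 329 and 615 in arthritis (log2 fold change -2.49 ± 0.77 SE, adjusted p = 0.0485), and its call ended without control replicate 1, 3 or 4, arthritis replicate 1, 2, 4 or 5, WT control replicate 1, 2, 3 or 4 or WT arthritis replicate 5 (adjusted p up to 0.109). Summed, the list took 2.52% to 5.16% of normalized counts in the controls and 0.327% to 2.21% in arthritis, and these ranges did not overlap. The part of muscle RNA in the results on other lists was not tested.

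Other genes, several of them known from muscle, fell and were among those with the largest decreases by the naming rule. Myl6b, a slow myosin light chain, was at 1250.3, 678, 1351 and 607 in the controls and 228, 40.7, 494, 205 and 233 in arthritis (log2 fold change -2.29 ± 0.52 SE, adjusted p = 0.0118). Hspb7, a small heat shock protein of muscle, was at 647, 429.6, 889 and 1551 in the controls and 194, 50.2, 228, 179 and 259.8 in arthritis (log2 fold change -2.29 ± 0.56 SE, adjusted p = 0.0170). Slc2a4, the insulin-regulated glucose transporter of muscle and fat, was at 218, 154, 236 and 440.1 in the controls and 98.5, 8.53, 71.4, 81.9 and 43.8 in arthritis (log2 fold change -2.35 ± 0.60 SE, adjusted p = 0.0198), and its call ended without control replicate 4 (adjusted p up to 0.0557). Each was lowest in arthritis replicate 2. Yipf7, Sypl2 and Tmem52 fell by 2.59, 2.35 and 2.46, and their calls ended without control replicate 1, 3 or 4, arthritis replicate 2, 4 or 5, WT control replicate 1, 2, 3 or 4 or WT arthritis replicate 4 or 5 (adjusted p up to 0.0964), without control replicate 1, 3 or 4 or arthritis replicate 2 or 5 (adjusted p up to 0.0858) and without control replicate 1, 3 or 4 or arthritis replicate 5 (adjusted p up to 0.0723) respectively.

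Nuclear genes of oxidative phosphorylation had a log2 fold change below 0 in all 21 members (7 without overlap between groups), with a median of -0.39, and 4 fell (Ndufs1, Ndufv1, Uqcrc1 and Atp5b). The count was 0 without control replicate 4, 1 without control replicate 3, arthritis replicate 2 or 5, WT control replicate 1, 2, 3 or 4 or WT arthritis replicate 5 and 2 without arthritis replicate 1 or 4. Ndufv1, a subunit of complex I, was at 821, 614, 658 and 1069 in the controls and 434, 450.1, 517, 474 and 411 in arthritis (log2 fold change -0.76 ± 0.19 SE, adjusted p = 0.0163), and its call ended without control replicate 4 (adjusted p up to 0.0514). These genes took 0.5303% to 0.813% of normalized counts in the controls and 0.372% to 0.503% in arthritis, without overlap. The part of muscle RNA in this was not tested. The mitochondrially encoded transcripts gave no call in 15 members and a median of -0.05 (limma called none, 0 had an unadjusted p under 0.05, edgeR called 0 and DESeq2 0).

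In the glycolysis and hypoxia list 1 of 19 members rose and 1 fell, the latter Slc2a4. Hif1a, the oxygen-regulated transcription factor, was at 631, 497, 400.1 and 535 in the controls and 868, 1679, 1078, 789 and 1470.5 in arthritis (log2 fold change 1.15 ± 0.27 SE, adjusted p = 0.0133), without overlap. Without 1 library the number higher was 2 without control replicate 1 or 2, arthritis replicate 2 or WT arthritis replicate 2, and the number lower 0 without control replicate 4. Adm, adrenomedullin, was at 89.02, 43.02, 30.9 and 56.4 in the controls and 157, 49.3, 151, 145 and 90.3 in arthritis (log2 fold change 1.08 ± 0.36 SE, adjusted p = 0.0575), with overlap. Fatty acid oxidation genes gave no call in 13 members (limma called none, 4 had an unadjusted p under 0.05, edgeR called 0 and DESeq2 0).

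Keratins and cornified envelope genes of the skin had a log2 fold change below 0 in 16 of 18 members, with a median of -1.66, and 1 fell, near the background. It was Nccrp1, at 1003, 687, 1315 and 2903 in the controls and 225, 49.3, 390, 281 and 184 in arthritis (log2 fold change -2.76 ± 0.78 SE, adjusted p = 0.0322), and its call ended without control replicate 1, 3 or 4 or arthritis replicate 2 or 5 (adjusted p up to 0.08602). Krt10, a keratin of the upper epidermis, was at 44177, 21232, 29964 and 112036 in the controls and 9876, 552, 19739.6, 12144 and 7882 in arthritis (log2 fold change -2.73 ± 1.07 SE, adjusted p = 0.106). Arthritis replicate 2 was far below the other 8 libraries. All listed genes together took 1.31% to 5.32% of normalized counts in the controls and 0.0596% to 1.84% in arthritis, and these ranges overlapped.

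Adipocyte and fatty acid synthesis genes had a log2 fold change below 0 in all 18 members, and 4 fell (Lep, Fasn, Scd1 and Thrsp), 1 without control replicate 1 or arthritis replicate 5 and 2 without control replicate 4 or arthritis replicate 2. Fasn, fatty acid synthase, was at 344, 182, 178 and 351 in the controls and 126, 109, 129, 104 and 88.9 in arthritis (log2 fold change -1.18 ± 0.26 SE, adjusted p = 0.00895), without overlap. Thrsp, which adjusts lipid synthesis in fat, was at 239, 242, 165 and 189 in the controls and 62.2, 18.01, 50.3, 117 and 57.7 in arthritis (log2 fold change -1.96 ± 0.54 SE, adjusted p = 0.0279), and its call ended without control replicate 1, 2 or 3 or arthritis replicate 2 or 5 (adjusted p up to 0.0644). Lep, leptin, fell by 1.97 (adjusted p = 0.0235), and its call ended without control replicate 1 or 4 or arthritis replicate 5 (adjusted p up to 0.0665).

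The Schwann cell and myelin list, which also holds the nerve gene Npy, fell in 6 of 14 tested members and rose in none. Mbp, Pmp22, Prx, Ncmap and Npy were among those that fell. The count was 2 without control replicate 3 and 3 without arthritis replicate 2. Prx, periaxin, which stabilizes myelin, was at 146, 129.6, 184 and 207 in the controls and 66.1, 15.2, 58.3, 88.9 and 33.3 in arthritis (log2 fold change -1.85 ± 0.46 SE, adjusted p = 0.0166). Npy, a neuropeptide of sympathetic nerves, was at 210.4, 401, 394 and 144 in the controls and 37.6, 26.5, 53.3, 61.9 and 44.5 in arthritis (log2 fold change -2.59 ± 0.52 SE, adjusted p = 0.00588). The groups of both were apart, and arthritis replicate 2 was the lowest for each. Summed, the list took 0.0698% to 0.108% of normalized counts in the controls and 0.0346% to 0.0633% in arthritis, without overlap. In the female libraries alone no member passed.

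Endothelial genes moved little, with a median of -0.07: 1 of 16 rose (Icam1) and 2 fell (Tek and Vwf). Tek, the angiopoietin receptor Tie2, was at 117, 109.5, 147 and 108 in the controls and 68.7, 72.02, 74.4, 77.5 and 83.4 in arthritis (log2 fold change -0.66 ± 0.16 SE, adjusted p = 0.0134), and its call ended without control replicate 3 (adjusted p up to 0.0506). The calls of Icam1 and Vwf ended without control replicate 1, 3 or 4, arthritis replicate 2, 3, 4 or 5, WT control replicate 2, 3 or 4 or WT arthritis replicate 5 (adjusted p up to 0.117) and without control replicate 1, 2, 3 or 4, arthritis replicate 2, 3 or 5, WT control replicate 1, 2, 3 or 4 or WT arthritis replicate 5 (adjusted p up to 0.117) respectively.

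B lineage genes had a log2 fold change below 0 in 11 of 12 tested members, and 3 fell (Cd79a and Vpreb1 among them), 1 without control replicate 2 or 3 or arthritis replicate 2 or 5 and 9 without arthritis replicate 4. Vpreb1, part of the surrogate light chain of B cell precursors in marrow, was at 36.4, 86.6, 28.5 and 27.6 in the controls and 23.3, 9.48, 9.05, 21.8 and 7.64 in arthritis (log2 fold change -1.56 ± 0.50 SE, adjusted p = 0.0468). Its groups did not overlap, although arthritis replicates 1 and 4 came close to the lowest controls. The call of Vpreb1 ended without control replicate 1, 2, 3 or 4, arthritis replicate 2, 3 or 5, WT control replicate 1 or 3 or WT arthritis replicate 2 or 5 (adjusted p up to 0.132) and that of Cd79a, a chain of the B cell receptor, without control replicate 2 or 3 or arthritis replicate 2 or 5 (adjusted p up to 0.0627). Erythroid genes had a log2 fold change below 0 in all 9 tested members with a median of -2.29 (limma called none, 5 had an unadjusted p under 0.05, edgeR called 0 and DESeq2 0). Alas2, the first enzyme of heme synthesis in red cell precursors, was at 595, 1308, 482 and 243 in the controls and 384, 102, 37.2, 308 and 38.2 in arthritis (log2 fold change -2.29 ± 0.92 SE, adjusted p = 0.116). Among the controls, replicate 2 was the highest and replicate 4 the lowest in both lists; B lineage genes took 0.0125% to 0.0662% of normalized counts in the controls and 0.00481% to 0.0264% in arthritis and erythroid genes 0.0109% to 0.0578% of normalized counts in the controls and 0.00612% to 0.0246% in arthritis. The marrow content of the samples was not tested as a part of the bone result.

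T and NK lineage genes gave 1 call in 12 tested members. Gzmb, granzyme B, a protease of killer cells, was at 0, 0.559, 11.9 and 0 in the controls and 18.1, 69.2, 22.1, 63.6 and 56.3 in arthritis (log2 fold change 4.27 ± 0.91 SE, adjusted p = 0.00661), without overlap. Cd3d, a chain of the T cell receptor complex, was at 8.09, 9.498, 3.56 and 3.598 in the controls and 11.7, 7.58, 14.1, 7.84 and 8.34 in arthritis (log2 fold change 0.67 ± 0.42 SE, adjusted p = 0.312), with overlap. Mast cell genes rose in 3 of 10 members (Tpsb2, Fcer1a and Hdc) and fell in none, 1 without control replicate 2 or 3 or arthritis replicate 1. Hdc, which makes histamine and is also found in neutrophils and basophils, was at 36.4, 56.4, 21.4 and 19.2 in the controls and 242, 327, 101, 84.5 and 189.6 in arthritis (log2 fold change 2.42 ± 0.51 SE, adjusted p = 0.00653). Tpsb2, a mast cell tryptase with a close copy in Tpsab1, rose by 0.80, and its call ended without control replicate 1, 2 or 3 or arthritis replicate 1, 3 or 5 (adjusted p up to 0.0713). Fcer1a, a chain of the IgE receptor, rose by 2.46, and its call ended without control replicate 2 or 3 or arthritis replicate 1, 2 or 4 (adjusted p up to 0.103).

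In the cell cycle list 1 of 17 members rose, near the background, with a median of 0.23. Pcna, the sliding clamp of replication, was at 1039.9, 1157, 750.3 and 763 in the controls and 1425, 1567, 1211, 1371 and 1227 in arthritis (log2 fold change 0.57 ± 0.15 SE, adjusted p = 0.0187), and its call ended without control replicate 3 or 4 or arthritis replicate 2 (adjusted p up to 0.0672). Cytosolic ribosomal protein genes rose in 14 of 18 members and fell in none, 10 to 15 when 1 library was left out. Rpl32 was at 1788, 1644, 1383 and 1975 in the controls and 2718, 2653, 2969, 2539.9 and 2405 in arthritis (log2 fold change 0.65 ± 0.11 SE, adjusted p = 0.00162). The change was below 2-fold, but the spread was small and the groups did not overlap. Rps12, Rpl13a and Rps27a rose by 0.66, 0.58 and 0.55 (adjusted p = 0.000559, 0.00191 and 0.00288). As a sum, the list took 1.82% to 2.39% of normalized counts in the controls and 2.91% to 3.14% in arthritis, without overlap. Ribosomal protein genes have many processed copies, whose reads the counting could share. The count was 4 with the 2 arthritis libraries titled with the animal number and 2 in the female libraries.

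Circadian clock genes fell in 8 of 16 members (Per1, Per3, Cry2, Nr1d1, Dbp, Tef, Ciart and Bhlhe41) and 1 rose (Npas2). The time of day at which tissue was taken is not given in the labels, so it and arthritis cannot be told apart. Npas2, a partner of the clock activator Arntl, was named after its values were seen, at 8.09, 3.91, 9.498 and 3.598 in the controls and 9.07, 37.9, 18.1, 28.8 and 24.3 in arthritis (log2 fold change 1.72 ± 0.44 SE, adjusted p = 0.0186); the number of higher members was 0 without control replicate 4 or arthritis replicate 2. Dbp, a factor whose level follows the clock closely, was at 72.8, 41.9, 46.3 and 80.3 in the controls and 28.5, 12.3, 26.1, 13.1 and 21.5 in arthritis (log2 fold change -1.55 ± 0.34 SE, adjusted p = 0.00808). Nr1d1, the repressor Rev-erb alpha, was at 716, 651, 1041 and 1021 in the controls and 355, 184, 507, 507 and 347 in arthritis (log2 fold change -1.23 ± 0.28 SE, adjusted p = 0.0104). Tef, a relative of Dbp, was at 550.3, 398, 638 and 658 in the controls and 354, 180.1, 359.8, 301 and 225 in arthritis (log2 fold change -1.003 ± 0.22 SE, adjusted p = 0.00902). These 3 were lower in all 5 arthritis libraries than in any control. Per1, a repressor of the clock that glucocorticoids also induce, was at 101, 188, 245 and 213 in the controls and 41.5, 35.1, 103, 82.8 and 31.95 in arthritis (log2 fold change -1.74 ± 0.32 SE, adjusted p = 0.00301), and arthritis replicate 3 reached control replicate 1.

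Glucocorticoid-responsive genes split, with 3 of 13 higher (Fkbp5, Mt1 and Mt2) and 3 lower (Tsc22d3, Per1 and Cdkn1a). Cdkn1a, the p21 inhibitor of the cell cycle, was at 2112, 1587, 2073 and 3171 in the controls and 1046, 687, 1281, 1306 and 1004 in arthritis (log2 fold change -1.06 ± 0.19 SE, adjusted p = 0.00283), without overlap. Cdkn1a, Mt1 and Mt2 also stand in the muscle atrophy list, in which they made up all the calls of 13 members. Without WT arthritis replicate 1 another member of that list fell.

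The metallothioneins Mt1 and Mt2, small proteins that bind zinc and copper, rose with little spread. Mt1 and Mt2 lie side by side on chromosome 8 (GRCm38 chr8:94179082-94180327, plus strand, and chr8:94172664-94173568, plus strand). The promoter of Mt1 is shown for its metal response elements, searched as TGCACNC or TGCGCNC on both strands, with matches in capitals (RefSeq, GRCm38.p6, chr8:94178839-94179138, plus strand).

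Mt1: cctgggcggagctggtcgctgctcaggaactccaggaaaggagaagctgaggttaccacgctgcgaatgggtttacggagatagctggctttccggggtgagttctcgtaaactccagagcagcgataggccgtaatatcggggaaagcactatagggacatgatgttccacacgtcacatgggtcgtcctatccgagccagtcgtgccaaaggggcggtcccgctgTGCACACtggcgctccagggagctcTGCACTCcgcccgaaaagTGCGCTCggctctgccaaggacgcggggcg

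The Mt1 promoter held 3 matches and that of Mt2 held 4. At least 1 match was found in 6 of the 7 members of the metallothionein and zinc transporter list with a promoter sequence, and in 8444 (25.7%) of 32851 promoters. Mt1 was at 1837, 2197, 2220.2 and 2371 in the controls and 8453, 7871, 5964, 5155 and 5366 in arthritis (log2 fold change 1.58 ± 0.19 SE, adjusted p = 0.000315). Mt2 was at 1473, 1677, 1675 and 3237 in the controls and 8528, 8166, 6978, 6516 and 6578 in arthritis (log2 fold change 1.93 ± 0.24 SE, adjusted p = 0.000366). Every arthritis library was above every control for both, with control replicate 4 the highest control for Mt2. Their 3' reads may be shared between near copies. Slc39a14, a zinc importer that inflammation induces, rose by 1.90 (adjusted p = 0.0188), and its call ended without control replicate 4 or arthritis replicate 2 (adjusted p up to 0.05597). Of the 7 tested members of the list, these 3 rose and none fell.

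Of 15 heat shock and unfolded protein response genes 2 rose and 1 fell. Hsp90aa1, an inducible chaperone, was at 1594, 1746, 1438 and 1659 in the controls and 3062, 3661, 2368, 2428 and 2342 in arthritis (log2 fold change 0.76 ± 0.13 SE, adjusted p = 0.00223). Hspa5, BiP, the chaperone of the endoplasmic reticulum, was at 1708, 1631, 1699 and 1933 in the controls and 2913, 3996, 2437, 2810 and 2841 in arthritis (log2 fold change 0.77 ± 0.15 SE, adjusted p = 0.00384). Neither overlapped. Herpud1, which helps clear misfolded proteins from that compartment, fell by 0.42, and its call ended without control replicate 1, 2 or 3 or arthritis replicate 2, 3 or 5 (adjusted p up to 0.0837). Among AP-1 and early genes 1 of 15 passed, Jund, a constitutive AP-1 subunit, at 2994, 2834, 3129.6 and 2905 in the controls and 1380.0, 1132, 1476, 2108 and 1513 in arthritis (log2 fold change -0.99 ± 0.20 SE, adjusted p = 0.00447). Fos was at 117, 104, 94.98 and 146 in the controls and 129.6, 189.5, 1006, 1143 and 404 in arthritis (log2 fold change 1.83 ± 0.61 SE, adjusted p = 0.0624) and did not pass. The 3 highest were the libraries titled Joint, while arthritis replicate 1, titled with the animal number, lay within the range of the controls. The part of the title prefix in this was not tested.

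Among semaphorins, neuropilins and plexins, the family of the deleted gene, 5 of 29 tested members fell (Sema3c, Sema3d, Sema4b, Sema6c and Plxna2) and 1 rose (Sema6b). The number lower was 3 without control replicate 1 or arthritis replicate 2 and 9 without WT arthritis replicate 1, and the number higher 0 without control replicate 1 or 3, arthritis replicate 1, 2 or 5 or WT control replicate 3 and 2 without arthritis replicate 3, WT control replicate 1 or WT arthritis replicate 1 or 2. Sema6c, a membrane-bound semaphorin found in muscle (chr3:95160457-95174024, plus strand), was at 84.97, 61.5, 106 and 116 in the controls and 11.7, 18.95, 15.1, 29.6 and 14.6 in arthritis (log2 fold change -2.32 ± 0.34 SE, adjusted p = 0.000903). Plxna2, a receptor for class 6 and, with neuropilins, class 3 semaphorins, was at 89.02, 125, 153 and 118 in the controls and 67.4, 57.8, 76.4, 47.1 and 69.5 in arthritis (log2 fold change -0.91 ± 0.20 SE, adjusted p = 0.00865). Sema4b, a membrane-bound semaphorin, was at 202, 240.2, 226 and 189 in the controls and 93.3, 56.9, 121, 119 and 70.8 in arthritis (log2 fold change -1.26 ± 0.31 SE, adjusted p = 0.0141). All 3 were lower in every arthritis library than in any control. Sema3c, a secreted relative of Sema3b, was at 514, 320.1, 413 and 449.7 in the controls and 212, 159, 283, 207 and 231 in arthritis (log2 fold change -0.96 ± 0.25 SE, adjusted p = 0.0183), and its call ended without control replicate 1 or arthritis replicate 2 (adjusted p up to 0.0542). Sema6b, named after its values were seen, was at 24.3, 30.2, 13.1 and 38.4 in the controls and 58.3, 67.3, 34.2, 62.7 and 57.7 in arthritis (log2 fold change 1.11 ± 0.34 SE, adjusted p = 0.04195). Its groups overlapped, and its call ended without control replicate 1, 2 or 3, arthritis replicate 1, 2, 4 or 5 or WT control replicate 3 (adjusted p up to 0.140) and with sex as a term (adjusted p = 0.0625).

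Genes outside the lists with the lowest p or largest decrease, by the naming rule, included several with known roles. Lars2, a mitochondrial leucyl-tRNA synthetase (chr9:123366927-123462666, plus strand), was at 834, 1299.5, 1104 and 722 in the controls and 169.7, 171, 157, 173 and 209 in arthritis (log2 fold change -2.45 ± 0.22 SE, adjusted p = 2.94e-05). Atp1b2, a beta subunit of the sodium pump, was at 255, 326, 507 and 530.1 in the controls and 161, 37.9, 89.5, 101 and 69.5 in arthritis (log2 fold change -2.21 ± 0.34 SE, adjusted p = 0.001098). Mfge8, which bridges dying cells to phagocytes, was at 1012, 1162, 1349.9 and 825 in the controls and 407, 406, 423, 525 and 569 in arthritis (log2 fold change -1.21 ± 0.16 SE, adjusted p = 0.000555). All 3 were lower in every arthritis library than in any control, and Lars2 had the lowest p of all genes the rule takes. Nfix, a transcription factor, fell by 1.34, Wbp2, a co-activator, by 0.97, Mark2, a polarity kinase, by 0.99, and Zbtb7c by 1.74 (adjusted p = 0.0004197, 0.000344, 0.000344 and 0.000903). Epn1, epsin 1 of endocytosis, and Mapre3, a protein of microtubule ends, fell by 0.75 and 1.05 (adjusted p = 0.000815 and 0.000903). B4galt6, which makes lactosylceramide, rose by 1.31 (adjusted p = 0.000793). None of these calls ended when any 1 library was left out.

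The arthritis effect of Sema3b-/- mice was then set against that of WT mice, in which 582 genes (4.21%) were called, 364 higher (2.64%) and 218 lower (1.58%). Of the 1710 genes called in Sema3b-/- mice 382 (22.3%) were also called in WT, all in the same direction, which is 65.6% of the WT calls, and 1623 of the 1710 had the same sign in WT. A larger number of calls in one genotype does not show that the effect differs, and the difference itself was tested as an interaction. No gene passed it with limma (lowest adjusted p = 0.449; 663 genes, 4.8%, at an unadjusted p under 0.05) or edgeR, and 6 passed with DESeq2 on recovered reads (Nrep, Tmem100, Errfi1, Lpar6, Lrrn4cl and Cilp2). The WT controls were all female and 4 of the 5 WT arthritis libraries male, so sex enters this comparison.

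The 5 genes with the lowest interaction p follow, Tmem100, Lrrn4cl and Per1 with their values, together with Mfge8, chosen after its values were seen. Tmem100, a membrane protein of vessel and nerve cells, was at 585, 598, 537 and 768 in WT control, 973, 588, 913, 513 and 579 in WT arthritis, 679.8, 596, 700.5 and 618 in Sema3b-/- control and 298, 255, 280.4, 374 and 343 in Sema3b-/- arthritis. Its log2 fold change was -1.07 in Sema3b-/- and 0.16 in WT (difference -1.23 ± 0.26 SE, adjusted p = 0.449). Every Sema3b-/- arthritis library stood below every library of the other 3 groups. Lrrn4cl, a leucine-rich repeat membrane protein, was at 231, 206, 203 and 231 in WT control, 333, 199.8, 272, 207 and 248 in WT arthritis, 169.9, 174, 180.5 and 168 in Sema3b-/- control and 84.2, 72.02, 98.5, 101 and 117 in Sema3b-/- arthritis. Its log2 fold change was -0.88 in Sema3b-/- and 0.19 in WT (difference -1.07 ± 0.23 SE, adjusted p = 0.449). Again Sema3b-/- arthritis was below every library of the other groups. Both genes were chosen for a low interaction p, so these gaps are no separate support for a difference between genotypes.

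Per1 was at 103, 87.5, 72.2 and 61.4 in WT control and 103, 109, 121, 142 and 127 in WT arthritis. It was at 101, 188, 245 and 213 in Sema3b-/- control and 41.5, 35.1, 103, 82.8 and 31.95 in Sema3b-/- arthritis. Sema3b-/- control replicates 2 to 4 stood above every WT control, and Sema3b-/- arthritis overlapped WT control. Per1 had a log2 fold change of -1.74 in Sema3b-/- and 0.58 in WT (difference -2.32 ± 0.45 SE, adjusted p = 0.449). Lpar6, a lysophosphatidic acid receptor, had 0.59 and -0.44 (difference 1.03 ± 0.21 SE, adjusted p = 0.449). Errfi1, a feedback inhibitor of the EGF receptor, had 0.19 and 1.52 (difference -1.33 ± 0.28 SE, adjusted p = 0.449). For Lpar6 the 2 control groups stood further apart than the 2 arthritis groups, and for Errfi1 the WT groups were apart while the Sema3b-/- groups overlapped. The call of Lpar6 within Sema3b-/- ended without control replicate 3 (adjusted p up to 0.0606). Mfge8 was at 770.3, 882, 887 and 915 in WT control, 806, 622, 882, 551 and 709.8 in WT arthritis, 1012, 1162, 1349.9 and 825 in Sema3b-/- control and 407, 406, 423, 525 and 569 in Sema3b-/- arthritis. Its log2 fold change was -0.29 in WT (difference -0.92 ± 0.23 SE, adjusted p = 0.658).

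**Figure D5:**
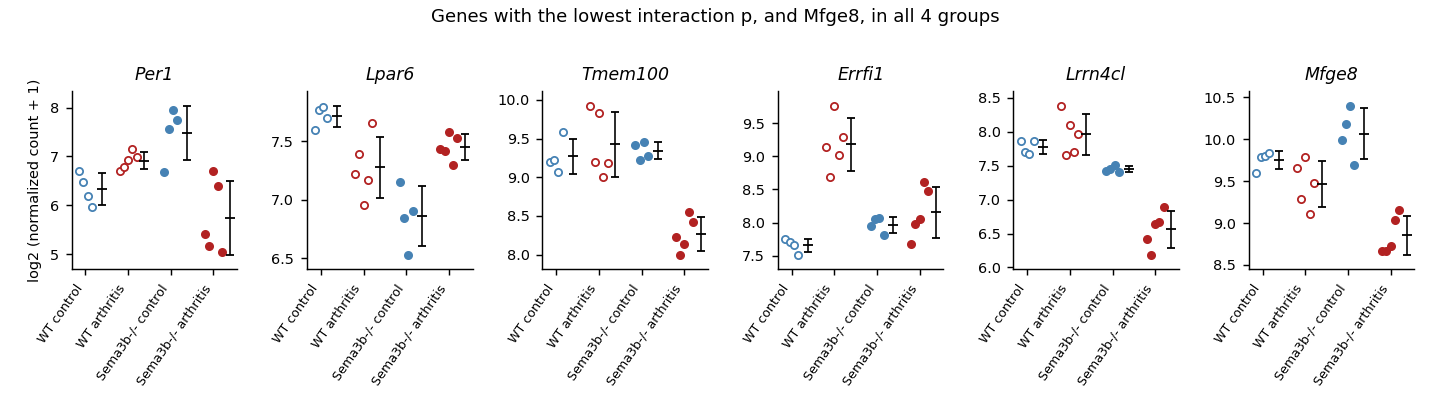
Levels of Per1, Lpar6, Tmem100, Errfi1, Lrrn4cl and Mfge8 (y axis, log2 of normalized count plus 1, axis not from 0) in the 4 WT control, 5 WT arthritis, 4 Sema3b-/- control and 5 Sema3b-/- arthritis libraries (points), with the mean and SD in black. Tmem100 and Lrrn4cl are lowest in Sema3b-/- arthritis, and Errfi1 lies above the controls in WT arthritis; none of these differences between genotypes passed limma's adjusted threshold.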

How the data were processed

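The deposited table holds a normalized count signal for each gene in 18 libraries, which the authors made by dividing read counts by a size factor per library. BWA, mm10 and DESeq2 1.32 are named per the submitters' processing notes, while for the counting tool, the annotation and the use of molecular barcodes nothing is given in the sources used here. The authors also deposited log2 fold changes, a test score and p-values per comparison, of which only counts and single values named as theirs were used. Deposited values up to a set number of reads were all whole multiples of the value of 1 read (100% within 0.02 of a whole read). Higher values were not checked and were rounded to whole reads. Reads were recovered in this way, and total reads above are their sums. Intervals and floors from reads cover counting error only.

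The 7 rows of spike-in RNA (11 reads in all) were left out. Of the 18578 genes, 13809 reached 10 normalized counts in 4 or more libraries and were tested. The 26 gene names that a spreadsheet had turned into dates were restored from the authors' WT comparison table, whose rows have the same means. The test was limma 3.58.1 (R 4.3.3) with a mean-variance trend and robust moderation, applied to log2 of normalized count plus 1 and fitting 4 group means over all 18 libraries with 14 residual degrees of freedom, with Benjamini-Hochberg adjustment and calls at an adjusted p under 0.05. The difference from WT was the interaction contrast of the same fit. Gene coordinates are those of GENCODE M21 on GRCm38, and promoters those of RefSeq on GRCm38.p6. Alternatives were other pseudocounts, filters and scalings, a sex term, a replicate block, subsets of libraries, each library left out, and edgeR 4.0.16 and DESeq2 1.42.0 on recovered reads, which called 1623 and 2221 genes. An adjusted p that DESeq2 gave as missing was not called. On simulated reads, 54% of 100 genes changed by 1 on the log2 scale and 92% of 100 changed by 2 were recovered, with 6 of the other genes called (13809 genes, Sema3b-/- arthritis against Sema3b-/- control). The changed genes were drawn only from genes above a minimum mean, so these shares do not cover the lowest genes tested.

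The members and gene lists were chosen with earlier results of these data known. Genes were named by a rule: among called genes without overlap between groups, with a mean at or above the median and no placeholder name, the 15 highest and 15 lowest fold changes and the 10 lowest p in each direction, then the 4 lowest p of each list and the 5 lowest interaction p. Members beyond it are named to fill out counts, and some genes the rule takes are not reported here. Replicate numbers come from the titles, except that the titles of control replicates 3 and 4 carry the same number and were numbered in order, so that the last is only a name.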

Additional observations from a re-analysis of the deposited data

Results flagged for a closer look

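In 358 checks, of each named gene in the 4 controls and in the 5 arthritis libraries, the gap between the highest or lowest library and its nearest neighbour was compared with the range of the group on the log2 scale (Dixon's test at the 95% level). Chance flags about 1 group in 20, and 16 values were found.

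In arthritis replicate 2, 6 genes stood below the other 4 arthritis libraries. Krt10 of the epidermis was at 552 normalized counts against 7882 to 19740 in the others, and Hspb7 of muscle at 50.2 against 179 to 259.8. Sypl2, a muscle membrane protein, was at 12.3 against 94.5 to 128, and Yipf7 at 4.74 against 44.4 to 70.4. Zbtb7c was at 52.1 against 108 to 138, and Wif1 at 91.9 against 139 to 159. The summed share of muscle and of keratin genes was also lowest in this library.

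In control replicate 4, Itgb3 was low at 89.9 against 388 to 516, while Mt2 was high at 3237 against 1473 to 1677 and Tpsb2 at 146 against 108 to 113. In control replicate 1, the shallowest library, Clic5 was high at 1428 against 625 to 662, and Il1rl1 was low at 12.1, or 3 reads, against 51.1 to 65.4. Cxcl10 was at 14.2 in control replicate 3 against 8.09 to 8.39.

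In arthritis replicate 4, C3 was high at 4901 against 2523 to 2869 and Cxcl13 low at 34.9 against 144 to 233. In arthritis replicate 3, C1qa was low at 1095 against 1657 to 1916 and Sema6b at 34.2 against 57.7 to 67.3.

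Outside the genes tested, WT arthritis replicate 2, the deepest library, held 4 spike-in reads, against 0 to 2 in the control libraries.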

How the results depend on the processing

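None of the 160 named calls that were followed changed sign in any of 32 other settings that tested the gene. The counts of called genes moved as follows from 1710 (944 higher, 766 lower). With the replicate number as a block 1020 passed (571 higher, 449 lower), 993 of them among the 1710, and 40 of the 160 named calls were lost. The numbers were not treated as pairing, since the deviations of same-numbered Sema3b-/- libraries correlated at 0.0246, 0.414, -0.13 and 0.157. From the Sema3b-/- libraries alone 998 passed (593 higher, 405 lower), and 26 of the 160 named calls were lost. With only the arthritis libraries titled Joint 610 passed (342 higher, 268 lower), and with those titled with the animal number 663 (321 higher, 342 lower); the groups were smaller in both. Chosen after seeing the data, the fit without control replicate 1 and arthritis replicate 5 gave 800 (462 higher, 338 lower) and that of the female Sema3b-/- libraries 577 (373 higher, 204 lower). In lists with 5 or more calls, the number of members called went, in the order of libraries titled Joint, titled with the animal number and female, as follows. The number higher went for neutrophil-attracting chemokines from 5 to 3, 1 and 2, for CC chemokines from 12 to 10, 9 and 10 and for the interleukin-1 family from 6 to 2, 3 and 1. The number higher went for the TNF pathway from 6 to 2, 3 and 2, for acute phase proteins from 6 to 3, 4 and 3 and for complement from 8 to 8, 5 and 3. The number higher went for monocyte and macrophage genes from 9 to 9, 7 and 6, for Fc receptors from 9 to 5, 5 and 6 and for C-type lectins from 11 to 6, 8 and 6. The number higher went for Toll-like receptors from 6 to 4, 3 and 1, for MHC class II from 6 to 5, 3 and 1 and for interferon-stimulated genes from 10 to 5, 2 and 3. The number higher went for ribosomal proteins from 14 to 11, 4 and 2. The number lower went for bone from 6 to 5, 1 and 0 and for cartilage from 7 to 3, 2 and 2. For the Schwann cell and myelin list, Npy included, the number lower went from 6 to 1, 3 and 0. The number lower went for the circadian clock from 8 to 4, 4 and 2 and for semaphorins and their receptors from 5 to 3, 2 and 1. Leaving out 1 of the 18 libraries gave 978 to 1913 genes, 539 to 1035 higher and 406 to 895 lower, and 111 of the 160 named calls held in every such fit. The interaction with WT gave 0 in each setting except DESeq2 on recovered reads, with 6; leaving out 1 library gave 0 throughout, and the cause of the 6 was not tested. Genes near 0 in the controls, such as Cxcl3 and Gzmb, are limited by depth: 3 reads are 12.1 normalized counts in control replicate 1 and 1.68 to 3.60 in the other controls.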
